A study of Mus musculus with 4 samples.

Results

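The collagen genes of mouse embryonic stem cells (ESCs) are described here across 4 RNA-seq libraries of the transition from ESCs to epiblast stem cells (EpiSCs), the culture counterpart of the step from the naive to the primed epiblast. The members are all protein-coding genes of the raw count table whose mouse symbol has the form Col, a number, the letter a and a number, plus Emid2, the older symbol of Col26a1. They number 44 of 37620 genes. They comprise 11 fibrillar collagens, 6 basement membrane (type IV) collagens and 27 of other types.

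All libraries came from mouse ESCs of strain 129/Sv, either wild type (WT) or with the Cripto gene (Tdgf1) knocked out (Cripto KO). ESCs were kept in serum with leukaemia inhibitory factor (serum/LIF). For conversion to EpiSCs they were cultured with basic fibroblast growth factor and 20 ng/ml Activin A (F/A) over 6 days. The study reports that this conversion was impaired in Cripto KO cells, so "transition" below names the culture change from serum/LIF to F/A. Cripto is a membrane-bound co-receptor of the TGF-beta ligand Nodal. Each of the 4 conditions, WT serum/LIF, WT F/A, Cripto KO serum/LIF and Cripto KO F/A, had 1 library and hence no replicate, so no difference below has a test. The study worked with more than 1 Cripto KO clone and the labels do not say which was sequenced, so clone and genotype cannot be told apart. In RNA from a whole culture, fewer cells of a type and less RNA per cell cannot be told apart.

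Collagens are trimers of chains that wind around each other through repeats of glycine followed by 2 further residues (Gly-X-Y). Fibrillar collagens form the cables of connective tissue. Type IV collagen forms the sheet of the basement membrane, on which epithelia such as the epiblast rest. The FACIT collagens sit on the surface of fibrils, transmembrane collagens span the cell membrane, and multiplexins carry an anti-angiogenic fragment at their end. Chains are hydroxylated, folded with the chaperone Hsp47 (Serpinh1), exported, trimmed and crosslinked. Cells bind them through integrins and discoidin domain receptors.

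The libraries held between 15230856 and 17315442 counts. In Cripto KO F/A all but 3 of the 18700 genes with counts had an even count, against 53.1% to 53.6% odd counts in the other libraries, so its counts were halved wherever precision mattered. The limit below which a gene was not called detected was 3 counts, or 6 in Cripto KO F/A. Tdgf1 counted 18714 in WT serum/LIF, 1572 in WT F/A, 945 in Cripto KO serum/LIF and 86 in Cripto KO F/A, 17.5-fold lower in the knockout in serum/LIF and 17.8-fold lower in F/A. The 7 measured naive pluripotency genes were all over 2-fold lower in F/A in both genotypes, and 6 (WT) or 5 (Cripto KO) of 7 primed epiblast genes were over 2-fold higher.

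Of the 44 collagens, 34 were measured, that is, they were in the authors' normalized table and averaged at least 25 counts per library. They are 10 of 11 fibrillar, 5 of 6 type IV and 19 of 27 other collagens. Another 8 had few counts (Col24a1, Col4a6, Col6a6, Col9a1, Col14a1, Col19a1, Col25a1 and Col8a1, between 0 and 56 in any library). Col10a1 and Col28a1 stayed at or under the limit in every library. Above the limit were 37 members in WT serum/LIF, 40 in WT F/A, 35 in Cripto KO serum/LIF and 35 in Cripto KO F/A. The collagens together took 0.0894% of all counts in WT serum/LIF, 0.245% in WT F/A, 0.0912% in Cripto KO serum/LIF and 0.26% in Cripto KO F/A.

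The type IV genes lie in head-to-head pairs, so that both chains of a pair start from the same stretch of DNA, and these stretches are shown because both members of each of the first 2 pairs changed together. Coordinates are those of NCBIM37 (mm9), the build of the files, the strand is plus and capitals mark the matches to the motifs searched, the TATA box (TATAAA), the CCAAT box (CCAAT) and the GC box (GGGCGG) on both strands. On chromosome 8 the first exons of Col4a1 (chr8:11198423-11312826, minus strand) and Col4a2 (chr8:11312805-11449287, plus strand) overlap by 22 bases of their 5' ends.
Col4a1 and Col4a2 overlap, chr8:11312805-11312826: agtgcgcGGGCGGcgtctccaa
On chromosome 1 Col4a4 (chr1:82447298-82583424, minus strand) and Col4a3 (chr1:82583496-82718634, plus strand) are separated by 71 bases.
Col4a4 to Col4a3, chr1:82583425-82583495: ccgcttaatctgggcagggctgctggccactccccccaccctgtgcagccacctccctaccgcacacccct
On the X chromosome Col4a5 (chrX:137909928-138123778, plus strand) lies 1308 bases from Col4a6 (chrX:137599946-137908619, minus strand), and the 250 bases before the start of Col4a5 are shown.
Before Col4a5, chrX:137909678-137909927: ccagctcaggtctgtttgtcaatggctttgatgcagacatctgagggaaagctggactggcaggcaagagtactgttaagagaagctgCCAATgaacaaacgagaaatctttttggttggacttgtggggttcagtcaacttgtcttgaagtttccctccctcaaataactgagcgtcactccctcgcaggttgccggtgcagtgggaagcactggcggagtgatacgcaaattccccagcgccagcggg
The overlap holds 1 GC box, the gap none of the 3 motifs, and the stretch before Col4a5 holds 1 CCAAT box. Over the 300-base RefSeq promoter windows (build GRCm38.p6; 250 bases before and 50 after the start) that matched 35 of the members, 23 of 38 windows held a GC box (60.5%), against 35.7% of all 32851 windows. A CCAAT box was in 13 of 38 (34.2%; 37.4% of all windows) and a TATA box in 5 of 38 (13.2%; 13.6% of all windows). These matches describe the letters of the windows only.

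The coding sequences set the classes apart. In 9 of the 11 fibrillar collagens the longest unbroken Gly-X-Y run was 337 to 344 triplets long; in Col24a1 it was 216 and in Col27a1 217. Type IV chains held 425 to 444 triplets, broken into 22 to 27 runs of at least 5 triplets, the longest of 39 to 66. The type VI chains held only 103 to 110 triplets each, and Emid2 held 34.

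With F/A the collagen repertoire changed in both genotypes: type IV and several fibrillar chains were higher, and a group led by type VI chains fell to or near the limit. Changes are ratios of the authors' quantile-normalized values, and a gene is called past the fold when its ratio was at least 2. In WT, 16 of 34 measured collagens (47.1%) were past the fold upwards in F/A against serum/LIF, where 19.7% of all 13896 measured genes were. In the other direction 7 of 34 (20.6%) were lower, which is near the 19.8% of all genes. In Cripto KO, 18 of 34 (52.9%) were higher (17.3% of all genes) and 8 of 34 (23.5%) were lower (18.1% of all genes). All of these ratios had 95% counting intervals beyond 1. The intervals cover counting error only, not the spread between cultures. Some members reached the minimum of counts through 1 culture only, which favours a call in that direction. Among them were Col4a3, Col4a4, Col8a2 and Col23a1 through F/A, and Col5a3, Col6a3, Col6a4, Col6a5 and Col17a1 through serum/LIF.

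**Figure D1:**
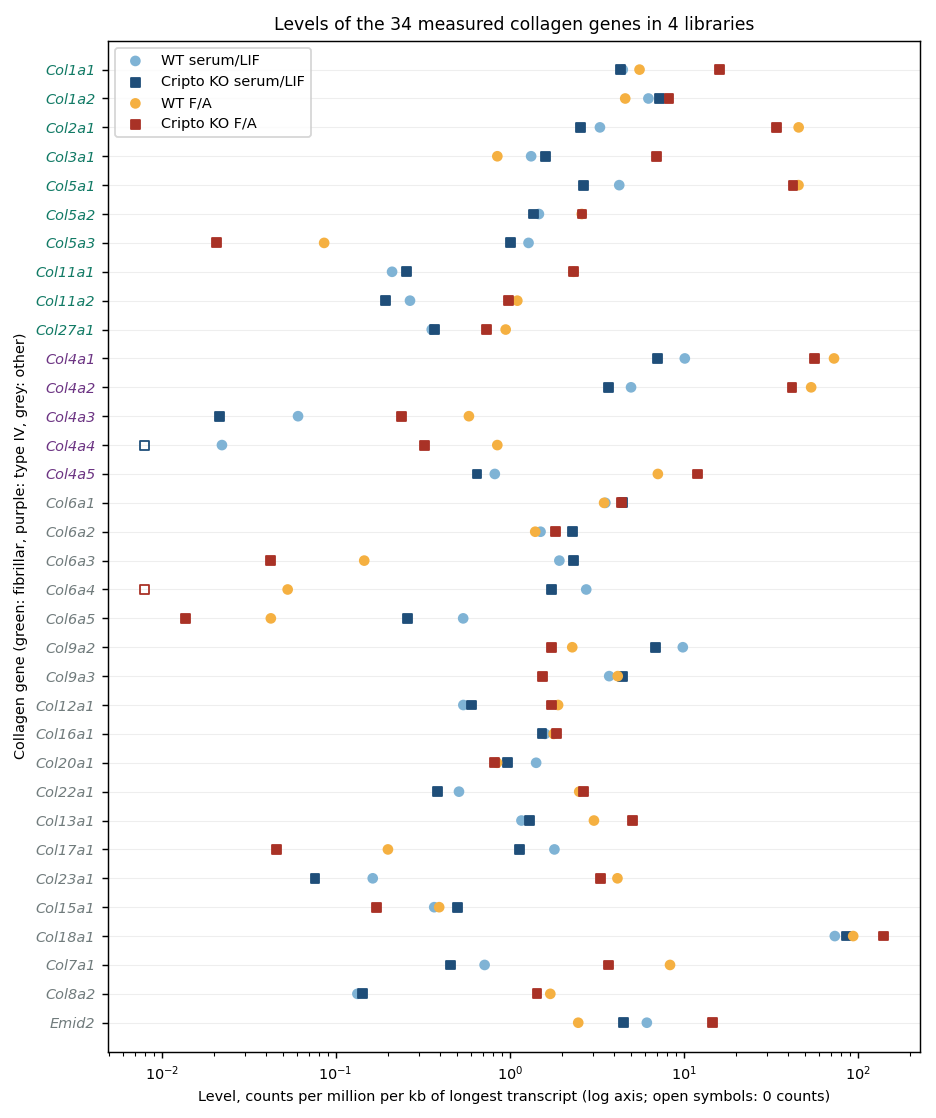
Level of each of the 34 measured collagen genes (rows, grouped by class) in the 4 libraries, in CPM per kilobase of longest transcript on a log axis; circles are WT, squares Cripto KO, and open symbols stand for 0 counts. The type IV rows and Col2a1, Col5a1, Col11a1 and Col23a1 have both F/A libraries to the right of both serum/LIF libraries, while Col5a3, Col6a3, Col6a4, Col6a5 and Col17a1 have them to the left.

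By class, the median log2 change in WT was 1.13 over the 10 fibrillar collagens, 3.38 over the 5 type IV and 0.11 over the 19 other collagens, beside -0.10 over all measured genes. In Cripto KO these medians were 1.90, 3.61, -0.14 and -0.09. The summed level of the type IV genes was 105.5 CPM (counts per 1000000 counts of the library) in WT serum/LIF, 891.5 in WT F/A, 75.3 in Cripto KO serum/LIF and 728.8 in Cripto KO F/A. That of the fibrillar genes was 143.8, 731.3, 130.4 and 758.5 CPM in the same order. Both sums were thus several-fold higher in F/A in each genotype. The fibrillar sum was carried largely by Col5a1 (35.86, 384.7, 22.45 and 357.9 CPM) and Col2a1 (16.86, 234.0, 13.1 and 174.1 CPM). Of the 10 measured fibrillar genes, 5 were past the fold upwards and 1 downwards in WT, and 6 and 1 in Cripto KO.

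Fibrillar collagens. Col2a1, the collagen of cartilage and notochord, counted 292 in WT serum/LIF, 3564 in WT F/A, 213 in Cripto KO serum/LIF and 2740 in Cripto KO F/A. Both F/A libraries lay far above both serum/LIF libraries, 13.5-fold in WT (95% counting interval 12.0 to 15.3) and 12.7-fold in Cripto KO (11.0 to 14.8). Col5a1, the chain of type V collagen that starts fibrils, counted 621, 5859, 365 and 5634 in the same order of libraries. It was 10.4-fold higher in F/A in WT (9.53 to 11.3) and 15.3-fold in Cripto KO (13.7 to 17.1), and supplied 52.6% of all fibrillar counts in WT F/A and 47.2% in Cripto KO F/A, against 24.9% and 17.2% in serum/LIF. Its partner Col5a2 counted 169, 262, 148 and 272 and stayed under the fold, at 1.71-fold in WT and 1.73-fold in Cripto KO. The third type V chain, Col5a3, went the other way, with 136, 8, 101 and 2 counts. It was 14.9-fold lower in F/A in WT (7.36 to 35.2) and 41.7-fold lower in Cripto KO, an estimate with a wide interval (7.32 to 1663). So of 3 type V chains, 1 was higher, 1 lower and 1 under the fold in F/A.

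The type XI chains, which pair with type II collagen in cartilage fibrils, were higher too. Col11a1 counted 28, 272, 32 and 282 (WT serum/LIF, WT F/A, Cripto KO serum/LIF, Cripto KO F/A, the order kept from here on), 12.0-fold higher in WT and 8.65-fold in Cripto KO. Col11a2 counted 28, 102, 19 and 94, 4.48-fold higher in WT and 5.21-fold in Cripto KO. Col27a1, a cartilage collagen with a shorter helix, counted 47, 110, 46 and 88. It was 2.795-fold higher in WT (1.97 to 4.02) and 1.957-fold in Cripto KO, just inside and just outside the fold.

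Most, but not all, measured markers of cartilage and notochord were higher in F/A, as was Col2a1. The 10 genes of that list summed to 22.5 CPM in WT serum/LIF, 418.5 in WT F/A, 18.8 in Cripto KO serum/LIF and 322 CPM in Cripto KO F/A, and of 7 measured, 5 (WT) and 6 (Cripto KO) were past the fold upwards in F/A and 1 in each genotype downwards. Over all measured genes 19.7% were higher and 19.8% lower in WT, and 17.3% and 18.1% in Cripto KO. Shh, a secreted signal of the notochord and floor plate, had the largest increase (4, 2921, 0 and 2108 counts), and Acan, the main proteoglycan of cartilage, the largest decrease (225, 22, 159 and 18 counts). Shh alone made up a large part of the summed level in both F/A libraries. Sox9 and Foxa2 gained less in Cripto KO than in WT, with log2 differences of -1.44 (-2.52 to -0.41) and -2.12 (-4.0 to -0.46), and Matn1 gained more, by 1.17 (0.14 to 2.21). For Shh the gains cannot be ranked, since its Cripto KO serum/LIF library held no count; its Cripto KO F/A value was 1.38-fold lower than that of WT F/A. The part of such cells in the Col2a1 values was not tested.

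The type I and type III chains, the main fibrillar collagens of mesenchyme, were past the fold in the WT transition in no case. Col1a1 (ENSMUSG00000001506, chr11:94797538-94814356) counted 459, 504, 416 and 1496. The first 3 libraries were close together and Cripto KO F/A stood above them: 1.202-fold in the WT transition (1.06 to 1.37) and 3.53-fold in that of Cripto KO (3.12 to 3.99). Col3a1 (ENSMUSG00000026043, chr1:45368383-45406551) counted 128, 72, 146 and 610. It was 1.60-fold lower in F/A in WT (1.19 to 2.16), under the fold, and 3.93-fold higher in Cripto KO (3.21 to 4.82). Col1a2, the partner of Col1a1, counted 581, 376, 633 and 694 and was past the fold in neither transition.

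Type IV collagens. All 5 measured type IV chains were past the fold upwards in both genotypes. Col4a3 and Col4a4 reached the minimum of 25 counts only through F/A, which favoured a call upwards for them. With a minimum of 100 counts Col4a1, Col4a2 and Col4a5 remained past the fold in both genotypes. Col4a1 and Col4a2, which form the widespread trimer of basement membranes, counted 1164, 7378, 762 and 5898 and 557, 5315, 390 and 4264. Col4a1 was 7.15-fold higher in F/A in WT (6.72 to 7.61) and 7.73-fold in Cripto KO (7.14 to 8.39). Col4a2 was 10.4-fold higher in WT (9.56 to 11.4) and 10.85-fold in Cripto KO (9.73 to 12.1). Of the 2 F/A libraries, WT held the higher value of both chains.

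Col4a3 and Col4a4, which start on either side of the 71-base gap, pair with Col4a5 in the trimer of the adult kidney filter. Col4a3 counted 9, 76, 3 and 32, 10.8-fold higher in WT (5.40 to 24.5) and 12.2-fold in Cripto KO (3.48 to 65.2). Col4a4 counted 3, 101, 0 and 40, 46.0-fold higher in WT (15.3 to 227) and at least 13.8-fold higher in Cripto KO, where the serum/LIF library held no count. Both were thus at or near the limit in serum/LIF and remained low in F/A. Col4a5 counted 93, 708, 69 and 1230, 8.48-fold higher in WT (6.82 to 10.6) and 17.3-fold in Cripto KO (13.5 to 22.5). Its neighbour Col4a6 was among the members with few counts, so the pair on the X chromosome was very unequal in both F/A libraries.

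Per transcript length, Col4a1 exceeded Col4a2 2.04-fold in WT serum/LIF (1.84 to 2.26), 1.35-fold in WT F/A (1.31 to 1.40), 1.91-fold in Cripto KO serum/LIF (1.68 to 2.16) and 1.35-fold in Cripto KO F/A (1.275 to 1.43). The ratio of the 2 chains therefore dropped with F/A in each genotype, with intervals that do not overlap. For type V, the ratio of Col5a1 to Col5a2 went from 2.90 to 17.6 in WT and from 1.94 to 16.3 in Cripto KO. For type I, that of Col1a1 to Col1a2 went from 0.712 to 1.21 in WT and from 0.593 to 1.94 in Cripto KO. The type I trimer is usually built of Col1a1 and Col1a2 chains in unequal number, with Col1a1 in excess, and only in the F/A libraries did the Col1a1 level exceed that of Col1a2.

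**Figure D2:**
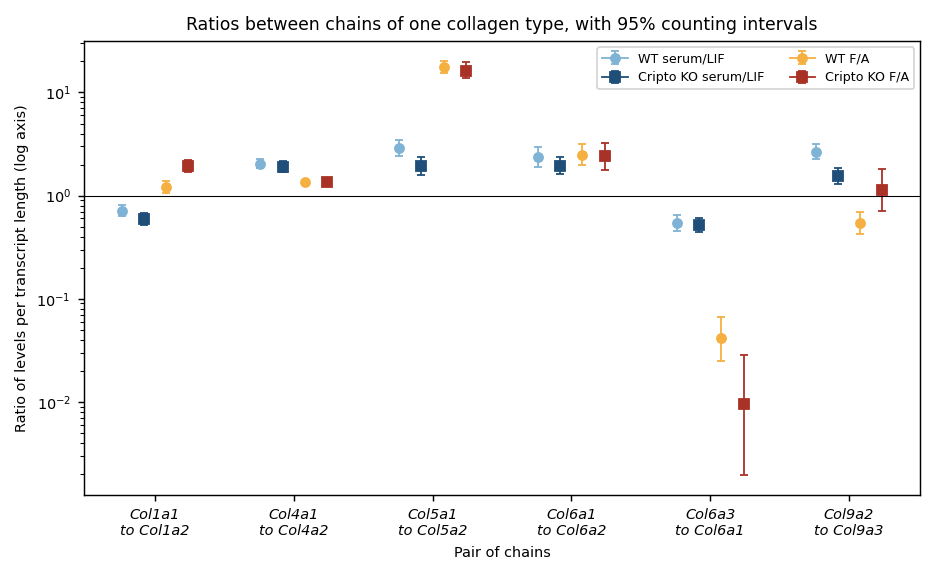
Ratio of the levels per transcript length between 2 chains of a collagen type (6 pairs) in the 4 libraries on a log axis; bars are 95% counting intervals and the line marks 1. Col6a1 to Col6a2 lies between 1.957 and 2.49 in every library, while Col6a3 to Col6a1 drops from 0.544 and 0.518 in serum/LIF to 0.0418 and 0.00962 in F/A.

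Genes of the primitive and parietal endoderm, which deposits type IV collagen in the embryo, are given beside these values. The 15 genes found of that list summed to 1179 CPM in WT serum/LIF, 1727 in WT F/A, 1156 in Cripto KO serum/LIF and 1628 in Cripto KO F/A. The laminin chain Lamc1 alone made up 690 of the 1179 CPM in WT serum/LIF and 383.3 of the 1628 in Cripto KO F/A, and was lower in F/A. Of 13 measured, 6 were higher in F/A in each genotype, among them Gata6 (18, 465, 6 and 798 counts) and Sox17 (10, 688, 9 and 270 counts). Lower were 3 in WT (Thbd, Hnf4a and Amn) and 4 in Cripto KO (the same and Sox7). Over all measured genes 19.7% were higher and 19.8% lower in WT, and 17.3% and 18.1% in Cripto KO. The median log2 change of the list was -0.04 in WT and 0.86 in Cripto KO. Afp, a visceral endoderm marker, was at or under the limit in all 4 libraries. The part of endoderm in the type IV values was not tested.

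Type VI collagens. Type VI collagen forms beaded filaments around cells from Col6a1, Col6a2 and a further long chain, which can be Col6a3, Col6a4, Col6a5 or Col6a6. The short chains stayed under the fold: Col6a1 counted 252, 218, 299 and 284, and Col6a2 128, 105, 183 and 142. The long chains dropped together. Col6a3 counted 301, 20, 340 and 6, 13.02-fold lower in WT (8.28 to 21.6) and 45.3-fold lower in Cripto KO (15.4 to 221). Col6a4 counted 355, 6, 211 and 0, 53.7-fold lower in WT (24.5 to 147) and at least 34.04-fold lower in Cripto KO. Col6a5 counted 87, 6, 39 and 2, 12.5-fold lower in WT (5.53 to 35.1) and 15.9-fold lower in Cripto KO, with an interval of 2.69 to 644.

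All 3 measured long chains were thus at or under the limit in Cripto KO F/A and close to it in WT F/A. The few counts of Col6a6, 15 and 14 in serum/LIF against 0 and 2 in F/A, lay in the same direction. Col6a6, Col6a5 and Col6a4 lie in a row on the minus strand of chromosome 9, with 27984 and 28810 bases between them, while Col6a3 lies on chromosome 1. Per length, Col6a3 fell from 0.544 of Col6a1 (0.459 to 0.646) to 0.0418 (0.0250 to 0.0661) in WT and from 0.518 (0.442 to 0.607) to 0.00962 (0.00196 to 0.0287) in Cripto KO.

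FACIT collagens. Col12a1, found on fibrils under tension, counted 108, 333, 113 and 314, 3.48-fold higher in F/A in WT (2.79 to 4.36) and 2.66-fold in Cripto KO (2.08 to 3.42). Col22a1, a collagen of tissue junctions, counted 78, 337, 55 and 370, 5.0-fold higher in WT (3.90 to 6.48) and 6.54-fold in Cripto KO (4.82 to 9.01). Col9a2, a chain of the type IX collagen that coats cartilage fibrils, moved against Col2a1. It counted 501, 102, 327 and 80, 4.56-fold lower in WT (3.68 to 5.70) and 4.04-fold lower in Cripto KO (2.90 to 5.76).

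Col9a3, the second type IX chain measured, counted 197, 194, 221 and 74. It was close together in 3 libraries and lower in Cripto KO F/A, 3.0-fold in that transition (2.11 to 4.37) against a ratio of 1.08 in WT (0.883 to 1.33). Col16a1 counted 144, 142, 130 and 152 and Col20a1 103, 54, 66 and 54, both under the fold in both genotypes.

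Transmembrane, multiplexin and further collagens. Col23a1 had the largest increase after Col4a4 in WT. It counted 16, 359, 7 and 296, 29.35-fold higher in WT (17.8 to 51.9) and 43.7-fold in Cripto KO (20.7 to 111). Col13a1, a transmembrane collagen of cell contacts, counted 64, 147, 67 and 252, 2.64-fold higher in WT and 3.64-fold in Cripto KO. Col17a1, a hemidesmosome component that anchors epithelia, counted 175, 17, 103 and 4, 8.89-fold lower in WT (5.40 to 15.6) and 20.2-fold lower in Cripto KO (5.45 to 169). The transmembrane collagens thus went both ways.

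Col18a1, the basement membrane multiplexin that carries endostatin, was the most abundant collagen in every library, with 8121, 9110, 8925 and 14060 counts. It supplied 52.5% of collagen counts in WT serum/LIF, 24.4% in WT F/A, 60.2% in Cripto KO serum/LIF and 34.4% in Cripto KO F/A, and its change stayed under the fold at 1.32-fold in WT and 1.66-fold in Cripto KO. The other multiplexin, Col15a1, counted 33, 31, 42 and 14. Its transition ratio was 1.18 in WT (0.700 to 1.99), and in Cripto KO it was 2.59-fold lower (1.15 to 6.84). Col7a1, which forms anchoring fibrils under epithelia, counted 115, 1177, 69 and 540, 11.3-fold higher in WT (9.32 to 13.8) and 7.47-fold in Cripto KO (5.71 to 9.87). Col8a2, a network collagen of the cornea, counted 10, 113, 10 and 98, 14.9-fold higher in WT (7.80 to 31.9) and 10.4-fold in Cripto KO (5.22 to 23.1).

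Emid2 (Col26a1, ENSMUSG00000004415, chr5:137217629-137359079) encodes a short collagen with an EMI domain. It counted 296 in WT serum/LIF, 105 in WT F/A, 205 in Cripto KO serum/LIF and 642 in Cripto KO F/A. The WT F/A library was the lowest and the Cripto KO F/A library the highest. It was 2.57-fold lower in F/A in WT (2.05 to 3.24) and 2.96-fold higher in Cripto KO (2.48 to 3.55), the only measured collagen past the fold in opposite directions in the 2 transitions.

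**Figure D3:**
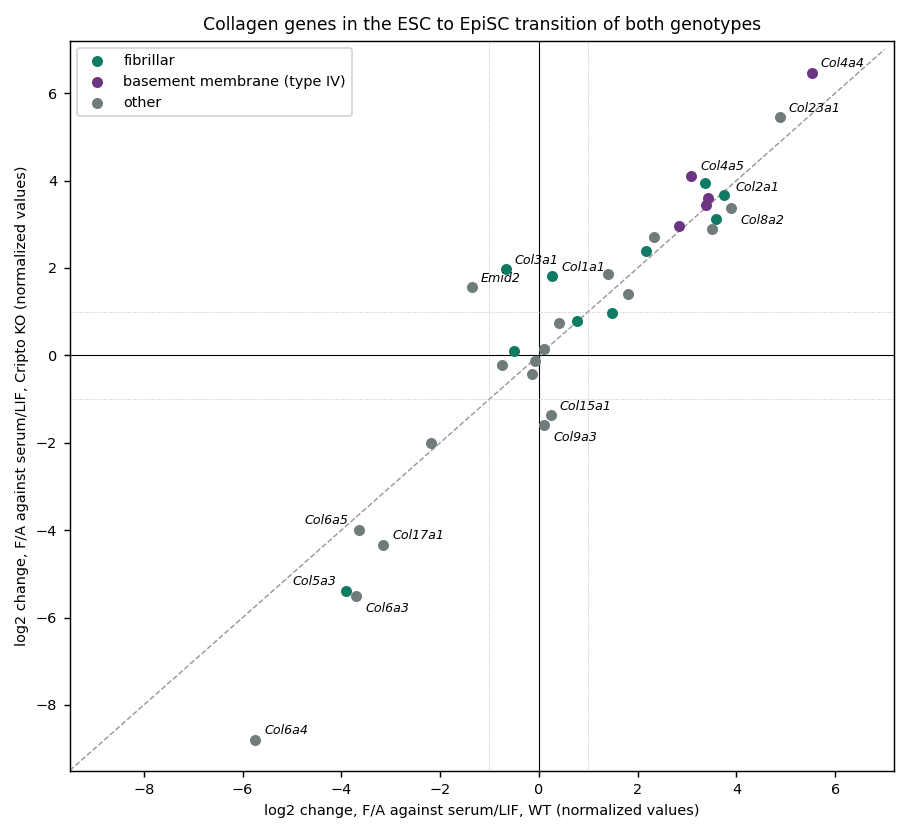
Log2 change of each measured collagen gene in F/A against serum/LIF in WT (horizontal axis) and in Cripto KO (vertical axis), coloured by class; the dashed line marks equal changes, dotted lines a 2-fold change, and a count of 0 (Col4a4 and Col6a4 in Cripto KO) was drawn as 0.5. Col1a1, Col3a1 and Emid2 lie above the line by 1.55, 2.65 and 2.93, and Col9a3 and Col15a1 below it by 1.70 and 1.61.

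The transitions of the 2 genotypes were compared by the difference of their log2 changes, Cripto KO minus WT. Of 34 measured collagens, 4 (11.8%) had a difference of at least 1 upwards, against 5.48% of all measured genes, and 6 (17.6%) downwards, against 7.74%. The upward ones were Emid2 at 2.93 (2.51 to 3.35), Col3a1 at 2.65 (2.12 to 3.18), Col1a1 at 1.55 (1.30 to 1.81) and Col4a5 at 1.03 (0.53 to 1.53). The downward ones were Col9a3 at -1.70 (-2.32 to -1.10), Col6a3 at -1.80 (-4.20 to -0.02), Col15a1 at -1.61 (-3.20 to -0.17), Col6a4, Col5a3 and Col17a1. For Col5a3 the interval was -6.97 to 1.46 and for Col17a1 -4.36 to 0.94, and Col6a4 had 0 counts in Cripto KO F/A and no interval, so these 3 differences were not detectable at this depth. The difference of Col6a3 rests on 6 counts in Cripto KO F/A, at the limit, and its interval ends close to 0. All of Col5a3, Col6a3, Col6a4 and Col17a1 reached the minimum of counts only through serum/LIF.

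After F/A, the Cripto KO library held more RNA of Col3a1, Emid2 and Col1a1 than the WT library, and less of Col7a1, Col9a3, Col4a3 and Col4a4. Of the 34, 3 (8.82%) were past the fold upwards, against 3.07% of all measured genes, and 9 (26.5%) downwards, against 4.43%. Most of these 9 reached the minimum of counts through 1 culture only. They were Col5a3, Col6a3, Col6a4, Col6a5 and Col17a1 through serum/LIF, and Col4a3 and Col4a4 through F/A. With a minimum of 100 counts 4 were lower (2.71% of all genes), of which Col6a3 and Col6a4 still passed through serum/LIF. Col3a1 was 8.20-fold higher in Cripto KO F/A (6.32 to 10.8), Emid2 5.97-fold (4.78 to 7.52) and Col1a1 2.90-fold (2.59 to 3.26). Below the fold, but with intervals beyond 1, lay Col1a2 at 1.78-fold (1.53 to 2.06), Col4a5 at 1.72-fold (1.54 to 1.91), Col13a1 at 1.69-fold (1.32 to 2.16) and Col18a1 at 1.43-fold (1.39 to 1.48). Both type I chains and the type III chain were thus higher in Cripto KO F/A, by different amounts.

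Among the 9 lower collagens, 4 had an interval below 1. Col7a1 was 2.24-fold lower (1.959 to 2.56), Col9a3 2.55-fold (1.78 to 3.73), Col4a3 2.14-fold (1.24 to 3.94) and Col4a4 2.34-fold (1.44 to 3.99). The other 5, Col5a3, Col6a3, Col6a4, Col6a5 and Col17a1, were at or under the limit in Cripto KO F/A and had intervals that include 1. Col4a1 and Col4a2 stayed under the fold, with ratios of Cripto KO F/A to WT F/A of 0.748 (0.717 to 0.781) and 0.791 (0.752 to 0.832). Within type IV, Col4a5 was therefore higher and the other 4 measured chains lower in Cripto KO F/A than in WT F/A. These ratios do not allow for transcript length, for which values are given below.

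**Figure D4:**
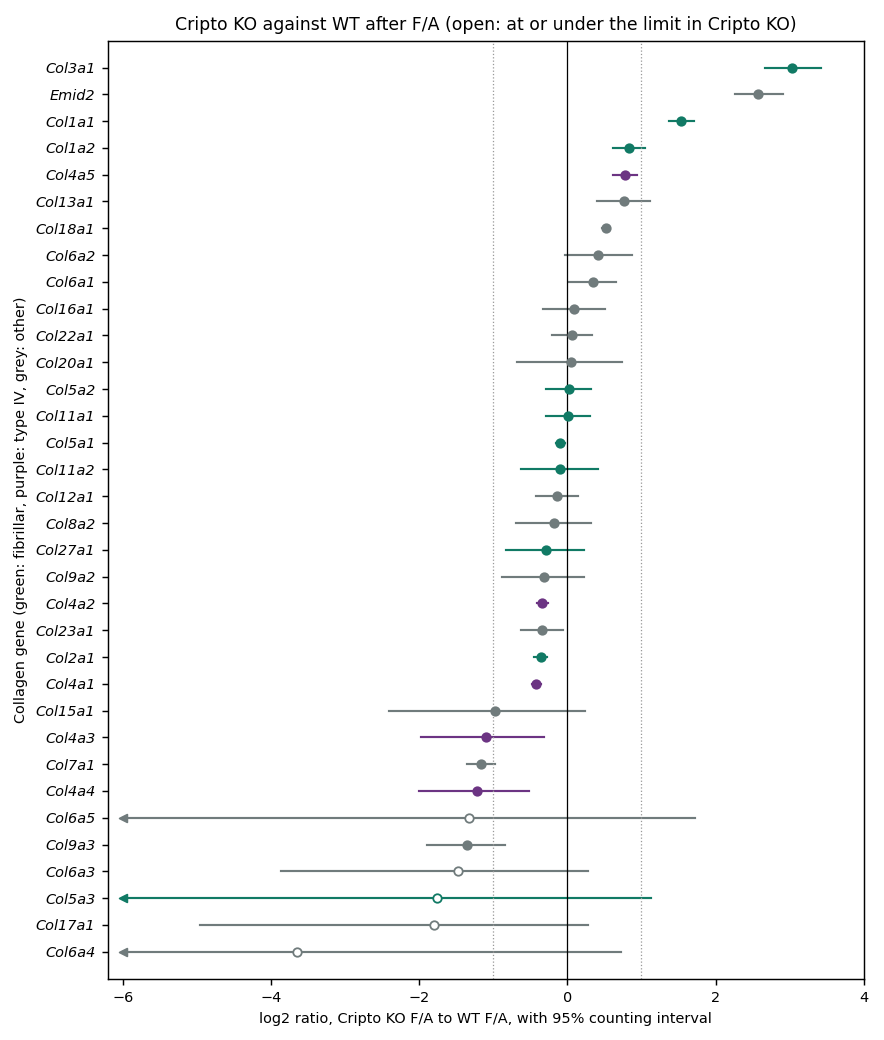
Log2 ratio of Cripto KO F/A to WT F/A for the 34 measured collagen genes, ordered by ratio, with 95% counting intervals; dotted lines mark a 2-fold change, arrows an interval that runs off the axis, and open symbols genes at or under the limit in Cripto KO F/A. Col3a1, Emid2 and Col1a1 lie past 2-fold to the right, and the 5 open symbols to the left have intervals that include 0.

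In serum/LIF the 2 genotypes differed less. No measured collagen was past the fold upwards in Cripto KO (1.74% of all measured genes were) and 2 were downwards (1.4% of all genes), Col4a3 and Col4a4. Col4a3 held 9 and 3 counts, a ratio of 0.414 with an interval from 0.0721 to 1.66, and Col4a4 was at or under the limit in both libraries. Among the larger counts, Col5a1 (1.58-fold, 1.38 to 1.80) and Col4a1 (1.45-fold, 1.32 to 1.59) were lower, and Col6a2 (1.64-fold, 1.30 to 2.07) was higher in Cripto KO, all under the fold. Since all comparisons draw on the same 4 libraries, the serum/LIF and F/A values of a gene also enter the difference of its transitions.

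Several markers of mesenchymal cells were also higher in Cripto KO F/A, while others fell with F/A. The 10 fibroblast genes summed to 129.2 CPM in WT serum/LIF, 282.7 in WT F/A, 127.3 in Cripto KO serum/LIF and 581.4 in Cripto KO F/A. Over all measured genes, 3.07% were past the fold upwards and 4.43% downwards in Cripto KO F/A against WT F/A. Of 8 measured fibroblast genes, 5 were past it upwards and none downwards. They were the receptor Pdgfrb (280 counts in WT F/A and 872 in Cripto KO F/A), Twist2 (38 and 140), Fbln1 (965 and 2026), Acta2 (2854 and 5906) and Dcn (5 and 18). Dcn held few counts in both F/A libraries and reached the minimum only through serum/LIF. Acta2 alone made up 187.4 CPM of the sum in WT F/A and 375.2 CPM in Cripto KO F/A. Thy1 (466, 18, 349 and 28 counts in the same order), S100a4 (255, 14, 255 and 20) and Dcn (328, 5, 417 and 18) were past the fold downwards in both transitions, and Lum and Fap were at or under the limit in Cripto KO F/A.

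The 11 paraxial and lateral mesoderm genes found summed to 39.2, 166, 42.8 and 400.9 CPM. Of 10 measured, 6 were higher in Cripto KO F/A than in WT F/A (Meox1, Foxc2, Tcf15, Hand2, Foxf1a and Twist1) and Tbx6 was lower. Tcf15, however, was past the fold downwards with F/A in both genotypes, the largest decrease of the list. Over all measured genes the shares were 3.07% and 4.43%. Hand2, a heart and limb mesoderm factor, counted 0, 81, 0 and 584. Meox1, a somite factor, counted 4, 42, 3 and 582. The part of mesenchymal or mesodermal cells in the Col1a1, Col3a1 and Emid2 values was not tested.

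Transcript length also moved with these comparisons. The longest annotated transcript of the measured collagens had a median of 6083.5 nucleotides, against 3060 over all measured genes, and 19 of the 34 were in the longest eighth of genes. That eighth had a median log2 change of 0.586 in the WT transition, 0.137 in the Cripto KO transition, -0.356 in Cripto KO against WT in F/A and -0.438 in the difference. Among all 3468 genes with transcripts of at least 4462 nucleotides, 30.4% were past the fold upwards in the WT transition and 22.5% in that of Cripto KO; of the 27 collagens of that length, 14 and 15 were. In Cripto KO against WT in F/A 5.88% of these long genes were past the fold downwards and 1.53% upwards, against 8 and 2 of the 27 collagens. Those 8 include the 5 that reached the minimum of counts only through serum/LIF. With each gene's value taken relative to genes of like length, Col4a3 was at -0.69, Col4a4 at -0.83 and Col7a1 at -0.72 (log2, Cripto KO against WT in F/A), under the fold. On the same scale Col1a1, Col3a1 and Emid2 were at 1.76, 3.25 and 2.53, past the fold. Col1a2 at 1.06 and Col4a5 at 1.05 were also past it on this scale. Col4a1 and Col4a2 were at -0.14 and -0.07, so most of their lower value in Cripto KO F/A was shared by genes of like length.

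**Figure D5:**
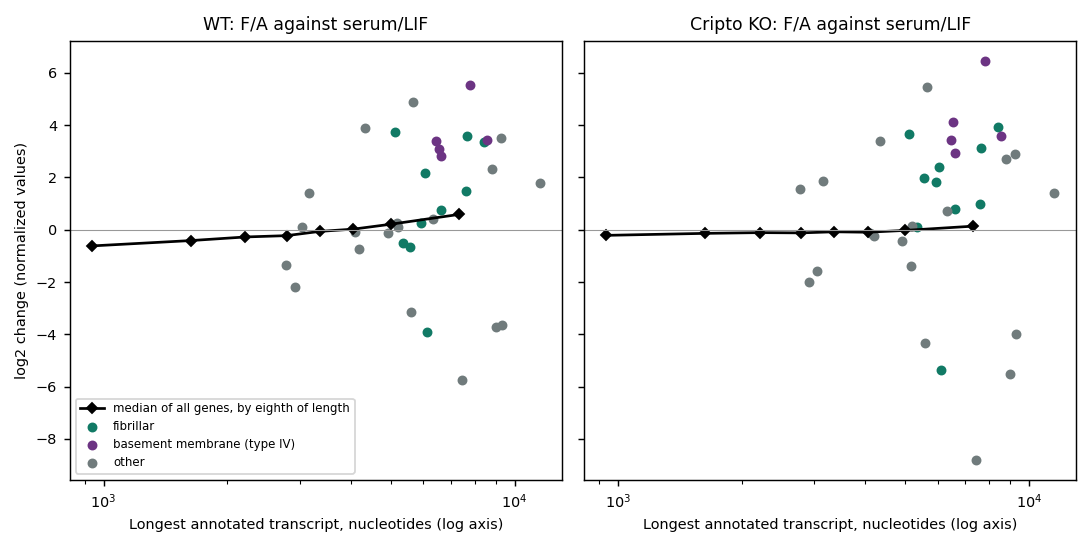
Log2 change in F/A against serum/LIF of the measured collagens (dots, coloured by class) by the length of their longest annotated transcript on a log axis, for WT and Cripto KO; the black line joins the medians of all measured genes in 8 equal groups by length. The medians climb from -0.619 to 0.586 in WT and from -0.215 to 0.137 in Cripto KO.

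The genes that fold and modify collagen summed to 1213 CPM in WT serum/LIF, 1757 in WT F/A, 1127 in Cripto KO serum/LIF and 2433 in Cripto KO F/A, and their median log2 change was 0.12 in WT and 0.37 in Cripto KO. Of 17 measured, 4 were past the fold upwards and 2 downwards in the WT transition, 2 and 1 in that of Cripto KO, and none in Cripto KO against WT in F/A. Over all measured genes 19.7% were higher and 19.8% lower in the WT transition, and 17.3% and 18.1% in that of Cripto KO. The same shares stand beside the counts of each list that follows. Serpinh1, the collagen chaperone Hsp47, counted 1128, 9309, 1189 and 16064, 9.45-fold higher in WT and 13.4-fold in Cripto KO. Leprel1, a prolyl 3-hydroxylase, counted 5, 545, 6 and 742 and had the largest increase of the list in both genotypes. The largest decreases were those of Crtap (1601, 379, 1062 and 556 counts), a partner of prolyl 3-hydroxylation, in WT and of the endoplasmic reticulum ion channel Tmem38b (531, 157, 406 and 204 counts) in Cripto KO.

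Of 10 measured genes of procollagen export and trimming, 4 were higher and 3 lower in the WT transition and 3 and 3 in that of Cripto KO. Tll1, a procollagen C-proteinase, counted 11, 186, 12 and 24 and was 6.79-fold lower in Cripto KO F/A than in WT F/A (3.79 to 13.4). The N-proteinase Adamts2 counted 60, 28, 92 and 80, 2.84-fold higher in Cripto KO F/A (1.71 to 4.78). Bmp1, the related C-proteinase, counted 166, 1018, 147 and 1002, and Pcolce, its enhancer, 2287, 262, 1864 and 242, alike in both genotypes.

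Of the 5 crosslinking enzymes, Lox counted 275, 22, 285 and 8 and Loxl4 108, 519, 61 and 390, so these 2 lysyl oxidases moved in opposite directions in both transitions. In all, 1 was higher and 1 lower in WT, and 3 and 1 in Cripto KO. Lox was also past the fold downwards in Cripto KO F/A against WT F/A, with an interval of the ratio (0.108 to 1.27) that includes 1.

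Of 6 measured collagen receptors, 4 (Itga1, Itgb1, Ddr1 and Mrc2) were past the fold upwards in both transitions and Ddr2 was downwards, beside shares over all genes of 19.7% and 17.3% upwards and 19.8% and 18.1% downwards in WT and Cripto KO. The median log2 change of the list was 1.94 in WT and 2.11 in Cripto KO. Itga1, an integrin chain that binds type IV collagen, counted 7, 84, 11 and 134, and Ddr2, which binds fibrillar collagens, 508, 93, 320 and 122. None was past the fold between the genotypes in F/A.

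Of 7 measured collagen-degrading proteases and inhibitors, 3 were higher and 2 lower in the WT transition and 4 and 2 in that of Cripto KO. The gelatinases Mmp9 (66, 255, 36 and 578 counts) and Mmp2 (561, 653, 411 and 1260 counts) gained more in Cripto KO, and Mmp9 was 2.19-fold higher in Cripto KO F/A than in WT F/A (1.84 to 2.60). Mmp14, which activates Mmp2, had the largest increase in WT (280, 1312, 448 and 1566 counts). The collagenase Mmp13 counted 37, 3, 60 and 0, at or under the limit in both F/A libraries.

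Of 9 measured matrix proteins that bind collagen, 5 were higher and 3 lower in the WT transition and 4 and 1 in that of Cripto KO. Thbs1 had the largest increase (190, 3340, 207 and 2370 counts) and the fibril-binding proteoglycan Dcn the largest decrease (328, 5, 417 and 18 counts). The related Bgn counted 1066, 484, 1134 and 1310 and was 2.61-fold higher in Cripto KO F/A than in WT F/A (2.32 to 2.94). Hspg2, the basement membrane proteoglycan perlecan, counted 6271, 25546, 7623 and 16524, 4.79-fold higher in the WT transition and 2.26-fold in that of Cripto KO. As for the collagens, these genes moved in both directions.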

How the data were processed

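RNA was sequenced in 1 library per condition. Per the study's methods, the authors aligned paired-end reads to the mouse genome (mm9, NCBIM37) with TopHat2 2.0.13 and counted them per Ensembl gene with HTSeq 0.6.1p1; the strand setting is not given in the sources used here. The deposited tables hold raw counts for 37620 genes and a normalized signal for 15462, which is the authors' quantile normalization of genes that passed a filter on low values; recomputing it from the raw counts gave the deposited signal within 1 for 100% of values.

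Here genes were named from the GENCODE vM1 annotation (Python 3.11.15; numpy 2.4.6, pandas 2.3.3 and scipy 1.17.1). Ratios are of the deposited normalized signal, with 0 set to 0.5. A gene was measured with a mean of at least 25 raw counts (Cripto KO F/A halved) and past the fold at 2-fold. With 1 library per condition no test was made and no p-value is given. Intervals are exact 95% (Clopper-Pearson) intervals of the count ratio, scaled to the normalized ratio; those of differences of log2 changes are exact or, over 4000 counts, normal approximations. They cover counting error only and were tested on simulated data. A library at 0 was set to its limit for "at least" folds. Levels per length use the longest annotated transcript. Scaling factors for alternatives came from edgeR 4.0.16 and DESeq2 1.42.0 in R 4.3.3, on the counts.

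Members and gene lists were chosen with earlier results of these data known. All measured members are named with counts. From the other lists, genes past the fold in Cripto KO against WT in F/A or in the difference of the transitions, and the largest changes of each list, are named; for the collagen receptors all genes past the fold, and Bmp1 and Mmp14, also appear. The list genes Mia3, Tfap2c, Sox1 and Tfcp2l1 were not analysed here.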

Additional observations from a re-analysis of the deposited data

Results flagged for a closer look

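In 4 measured collagens the WT and Cripto KO transitions went in opposite directions and differed by a log2 value of at least 1. Col1a2 also changed sign (log2 -0.503 in WT and 0.110 in Cripto KO), with a smaller difference, and is not among them. With 1 library per condition these differences were not tested. The log2 differences of the 4, Cripto KO minus WT, were 2.93 for Emid2 (296 to 105 counts in WT and 205 to 642 in Cripto KO), 2.65 for Col3a1 (128 to 72 and 146 to 610), -1.70 for Col9a3 (197 to 194 and 221 to 74) and -1.61 for Col15a1 (33 to 31 and 42 to 14). For Col9a3 and Col15a1 the WT change was small, with log2 values of 0.11 and 0.24 and counting intervals of the ratio that include 1, so that the opposite sign rests on a WT change that was not detectable at this depth.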

How the results depend on the processing

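The counts of collagens past the fold were recomputed under 9 other settings. With a minimum of 100 counts, higher collagens numbered 11 in the WT transition (16 at the minimum of 25) and 14 in that of Cripto KO (18). The shares of all 11080 genes were 17.3% and 15.0%. Lower collagens numbered 4 in the WT transition (7), 4 in that of Cripto KO (8), 4 in Cripto KO against WT in F/A (9), 0 in serum/LIF (2) and 3 in the difference (6). The shares of all genes in that order were 17.1%, 15.2%, 2.71%, 0.596% and 5.42%. With no minimum, higher collagens numbered 6 in Cripto KO against WT in F/A (3), 1 in serum/LIF (0) and 7 in the difference (4). The shares of all genes were 4.57%, 2.86% and 7.68%. Relative to genes of like transcript length, Cripto KO against WT in F/A gave 5 higher (3) and 5 lower (9), beside 2.72% and 4.49% of all genes. At 3-fold, 3 were lower in F/A (9), 1 in serum/LIF (2) and 2 higher in the difference (4). The shares of all genes were 1.53%, 0.482% and 1.92%. Scaling by total counts, TMM or DESeq2 size factors gave 4 lower in serum/LIF (2). These scalings also moved the split of all measured genes from 242 higher and 194 lower in serum/LIF to 168 and 251 (total counts), 172 and 245 (TMM) and 173 and 245 (DESeq2), and total counts moved that in F/A from 426 and 616 to 354 and 819. With 5 added to each value, 0 were lower in serum/LIF (2) and 3 in the difference (6), beside 0.914% and 6.18% of all genes. The minimum and the fold change by construction which genes can be called; for the other settings the cause was not tested. For the 73 single-gene values of collagens past the fold, 6 of the settings were run (not the 2 other minimums nor 3-fold); none of the 438 values reversed, and 16 left their counting interval. In Cripto KO against WT in F/A, Col4a3 (-0.69), Col4a4 (-0.83) and Col7a1 (-0.72) fell under the fold relative to genes of like length, and Col5a3 (-0.85) and Col6a5 (-0.59) with 5 added; in all 11 of the 73 fell under it in at least 1 setting. No paired analysis was possible because each condition has 1 library and the labels give no shared replicate numbers, and no library could be left out for the same reason. Depth limits the genes near 0 in F/A, Col5a3, Col6a3 to Col6a5 and Col17a1, for which the 2 genotypes cannot be ranked in F/A.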

Other observations

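The remaining marker lists are given as values, and the shares of all measured genes given above for each comparison stand beside their counts. The 9 trophoblast genes found summed to 15.9 CPM in WT serum/LIF, 216.9 in WT F/A, 6.33 in Cripto KO serum/LIF and 247.1 in Cripto KO F/A; of 6 measured, 5 were higher and Ascl2 was lower in F/A in each genotype. Between the genotypes in F/A, Cdx2 and Hand1 were past the fold upwards and Eomes and Ascl2 downwards in Cripto KO, and Krt7 gained more in Cripto KO (log2 difference 1.80, 1.02 to 2.63). The differences of the transitions of Cdx2, Hand1 and Gata3 rest on 1 to 3 counts in serum/LIF and had intervals that include 0. The 6 endothelial genes summed to 246.4, 31.3, 192.3 and 56.8 CPM. Of 3 measured, Kdr was higher while Pecam1 and Tek fell with F/A in each genotype. What remained of Pecam1 and Tek was past the fold upwards in Cripto KO F/A against WT F/A. The study also uses Pecam1 as an epiblast marker, and the part of endothelial cells in these values was not tested. The 5 neural genes found summed to 88.9, 322.4, 99.0 and 303.4 CPM, with the largest increase in Nes and the largest decrease in Tubb3.

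Among the endoderm genes, Sox17 (688 and 270 counts) and Cubn (45 and 16) were past the fold downwards in Cripto KO F/A against WT F/A. Hnf4a (2 and 4 counts) and Amn (2 and 0) were at or under the limit in both F/A libraries. Gata6 gained more in Cripto KO, by a log2 difference of 2.15 (0.73 to 3.78), and Sox7 was lower in F/A in both genotypes (45 to 20 counts in WT and 46 to 10 in Cripto KO), with an interval of the difference (-2.97 to 0.53) that includes 0. Prrx1 gained less in Cripto KO than in WT among the mesoderm genes. Of 7 measured naive genes, Nr0b1 held 0 counts in both F/A libraries, Prdm14 held 6 counts in WT F/A and 0 in Cripto KO F/A, with an interval of the ratio that includes 1, and Tbx3 had the smallest decrease. Of 7 measured primed genes, Fgf5, Otx2, Cer1 and Eomes were past the fold downwards in Cripto KO F/A against WT F/A, with a summed level of the list of 173.9, 1356, 186.8 and 665 CPM.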
